A study of Mus musculus with 4 samples.

Results

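The difference between IP6K2-/- and WT mice that the duodenum and the spinal cord had in common was examined across all genes measured in both tissues. The members are the genes whose probe passed the scanner software's test for a signal well above background on every array, 16185 of the 32575 genes and identifiers on the array (49.7%), of which 12024 carry a RefSeq symbol and 4161 only an accession. For each of them, the array labelled IP6K2-/- (KO) was set against the WT array inside each tissue, and the 2 differences were compared. The 4 groups were WT spinal cord, KO spinal cord, WT duodenum and KO duodenum, with 1 array each, and all RNA came from male mice of 20 weeks that had been kept on the normal diet CE-2, had eaten the purified diet iVid-neo during 1 week and had no food for the last 48 h, the WT mice being littermate controls. IP6K2-/- mice carry a whole-body deletion of an exon of the kinase domain. Whether the duodenum and the spinal cord of a genotype came from the same mouse is not given in the labels, and no group has a replicate, so no value below measures the spread between mice.

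Ip6k2 encodes a kinase that adds a phosphate to inositol hexakisphosphate and so makes the inositol pyrophosphate IP7, a small signalling molecule made in every cell and tied to energy and phosphate sensing. The duodenum, the first part of the small intestine, is lined by an absorptive epithelium that is renewed continually from crypts and is wrapped in smooth muscle with its own nerve plexus, whereas the spinal cord holds neurons that do not divide and the glia that sheathe and feed them.

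The arrays carried the tissues that their labels give. Each of the 5 duodenal epithelial markers, Vil1, Fabp1, Fabp2, Alpi and Cdx2, was higher on both duodenum arrays than on either spinal cord array, and the same held in the other direction for 4 of the 5 spinal cord markers, the exception being the myelin gene Mbp. The WT duodenum array was much dimmer. The 75th percentile of the processed signal was 68.0 there against 323 for KO duodenum, 905 for WT spinal cord and 971 for KO spinal cord, so that the KO duodenum array was brighter by 2.25 on the log2 scale before scaling and the KO spinal cord array by 0.10. Values are given below as log2 of the signal minus the 75th percentile of the array, and differences as KO minus WT on that scale, the spinal cord first where a pair of values names no tissue. Of the 16390 genes that were not members, 15692 were not well above background on the WT duodenum array, and 4003 failed on that array alone. The technical SD, taken from probes printed many times on an array, had a median over genes of 0.074 on the WT duodenum array and of 0.043 to 0.050 on the others, and it covers spots and not mice.

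The probe of the targeted gene did not separate the labels in the same way in both tissues. Ip6k2 gave a signal of 452 on the WT and 1320 on the KO spinal cord array, and of 139 on the WT and 572 on the KO duodenum array. After scaling, the differences were 1.45 in the spinal cord and −0.21 in the duodenum, with technical SDs of 0.059 and 0.082. The array labelled KO spinal cord was therefore higher than the WT array at this probe, and the duodenum difference stood beside a median of −0.11 over all genes. Where the probe sits with respect to the deletion was not determined here, so whether these signals fit the labels could not be told. The direction of each spinal cord difference rests on the spinal cord labels. Genes that differed in opposite directions are counted below beside those that differed in the same direction.

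The 2 differences were nearly unrelated across genes. Over the 16185 genes, Pearson's r between the duodenum and the spinal cord difference was 0.024 and Spearman's rho was 0.063, given as a description of genes that are not independent replicates. The duodenum differences were wider (SD 0.87, median −0.11) than the spinal cord differences (SD 0.33, median −0.03). By sign alone, 3087 genes (19.1%) were higher in both tissues, 5495 (34%) were lower in both and 7603 (47%) moved in opposite directions. When the genes were cut into 3 equal classes by mean level, r was 0.057 in the dimmest, −0.00069 in the middle and −0.012 in the brightest class. Genes with a symbol had an r of −0.02 and identifiers without one an r of 0.11.

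Few genes were at least 2-fold apart in both tissues. For the duodenum, 1150 genes (7.11%) were at least 2-fold higher and 2306 (14.2%) at least 2-fold lower, and for the spinal cord 253 (1.56%) were higher and 49 (0.303%) lower. Of these, 21 genes (0.13%) were higher in both tissues and 8 (0.0494%) lower in both, beside 62 (0.383%) in opposite directions. Of the 253 genes higher in the KO spinal cord, 8.3% were also at least 2-fold higher in the duodenum, near the 7.11% over all genes, whereas 21.7% were at least 2-fold lower there, against 14.2% over all genes. Of the 49 genes lower in the KO spinal cord, 16.3% were lower and 14.3% higher in the duodenum. Seen from the duodenum, the shared genes made up 1.83% of those higher and 0.347% of those lower. The share of same-way genes in each list was thus close to the share over all genes. Of the 8 genes lower in both, 2 have a symbol and 6 do not. Of the 21 higher in both, 14 have a symbol and 7 only an accession. By the smaller of the 2 differences, ENSMUST00000103324 was highest, at 1.95 in the spinal cord and 3.04 in the duodenum. Its WT signals were low, at 5.98 in the spinal cord and 8.23 in the duodenum. The brighter BB237529 was at 1.41 and 2.50. Of the 14, Gimap4 and Slc16a10 had probes that differed in sign and are not described further.

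With limits set by the technical SD in place of 2-fold, a rule chosen after the data were seen, 1118 genes (6.91%) were higher in both tissues by more than 2 technical SD, 1869 (11.5%) were lower in both and 2487 (15.4%) were opposite. Of the 5474 genes beyond this limit in both tissues, 54.6% moved the same way, against 53.02% of all genes.

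The test over both tissues made no call. In a limma fit of all 4 arrays with the tissue as a block, 0 of 16185 genes (0%) had an adjusted p under 0.05, the smallest adjusted p being 0.97, and 733 genes (4.53%) had an unadjusted p under 0.05. This fit has 1 residual degree of freedom, which is the disagreement between the 2 tissues, so its error does not measure mice. The exact permutation test within tissues has 4 arrangements, 2-sided, and cannot go below p = 0.5 for any gene. No gene below passed the test in this fit. Alternative settings that made calls are counted near the end. The technical SD of a difference lay between 0.0547 and 0.199 in the spinal cord and between 0.0664 and 0.259 in the duodenum over the 242 genes that could be named.

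**Figure D1:**
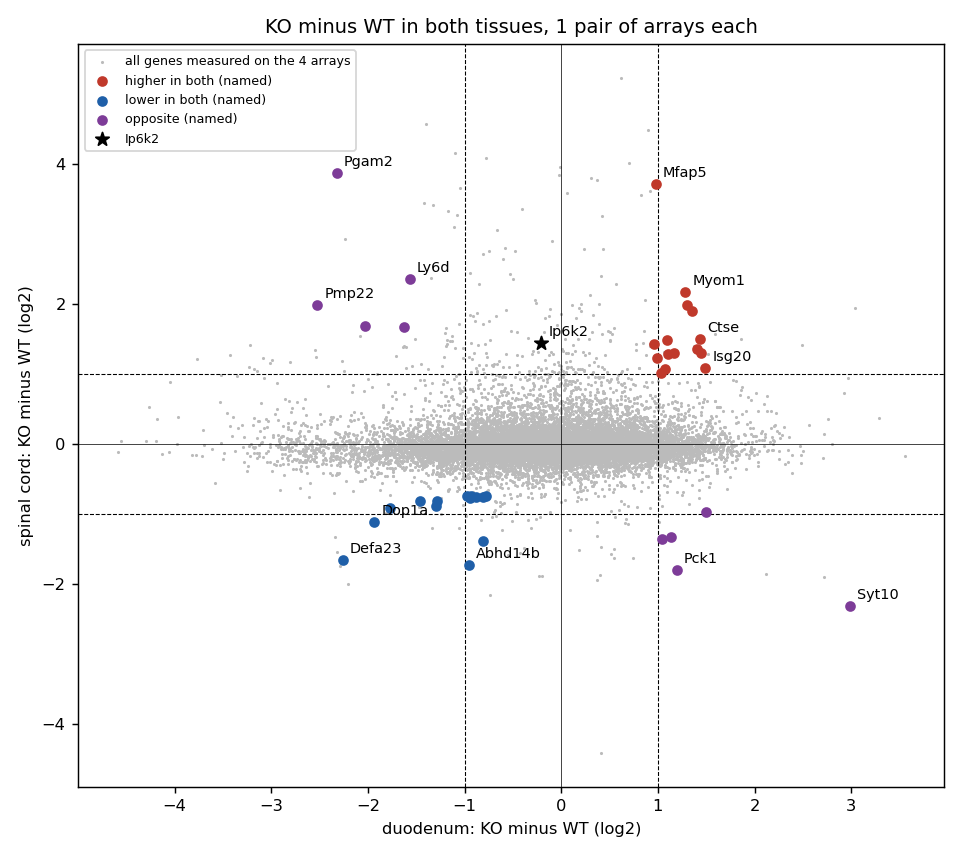
KO minus WT in the duodenum (x axis, log2) against KO minus WT in the spinal cord (y axis, log2) for each of the 16185 genes in grey, with the named genes that moved the same way in red and blue, those that moved in opposite directions in purple and Ip6k2 as a star; dashed lines mark 2-fold. The cloud is flat along the x axis (r = 0.024), and Ip6k2 lies near 0 in the duodenum (−0.21) and above 1 in the spinal cord (1.45).

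Among genes with a symbol whose probes had the same sign, the largest shared increase was that of Ctse, which encodes cathepsin E, an aspartic protease of the gastric surface epithelium and of immune cells. Its signal was 67.5 on the WT and 205 on the KO spinal cord array, and 62.2 on the WT and 799 on the KO duodenum array. After scaling it was 1.5 higher in the KO spinal cord and 1.43 higher in the KO duodenum, with technical SDs of 0.086 and 0.09. The limma estimate over both tissues was 1.47 ± 0.38 (SE), with an adjusted p of 0.97.

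Isg20, an RNA exonuclease that interferon induces, gave 548 and 1244 in the WT and KO spinal cord and 62.6 and 836 in the WT and KO duodenum. Its differences were 1.08 and 1.49. Itga9, the integrin alpha 9 chain of smooth muscle and endothelium, lies on the chromosome of Ip6k2 and gave 273 and 725 in the spinal cord and 23.7 and 305 in the duodenum. Its differences were 1.31 and 1.44, so that both KO arrays of these genes lay above their WT arrays.

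Of the muscle genes, some were higher on the KO arrays of both tissues, and most members of the skeletal muscle list moved in opposite directions. Myom1 and Myom3 encode myomesins, which hold the thick filaments of striated muscle in register. Myom1 gave 78.6 and 378 in the spinal cord and 8.14 and 93.9 in the duodenum, differences of 2.16 and 1.28. Myom3 differed by 1.91 and 1.36 and Eno3, the muscle enolase, by 1.43 and 0.95. Acta1, the skeletal muscle actin, gave 256 and 6142 in the spinal cord and 30.9 and 273 in the duodenum, differences of 4.48 and 0.90. Of the 7 measured members of the skeletal muscle list, 2 were higher in both tissues and 5 moved in opposite directions, against 19.1% and 47% of all genes. In the spinal cord 5 of the 7 were at least 2-fold higher, against 1.56% of all genes. In the duodenum 3 were at least 2-fold lower, against 14.2% of all genes. List medians were 2.29 in the spinal cord and −0.85 in the duodenum, and Ckm, muscle creatine kinase, was at 4.58 and −1.40. The share of muscle RNA in these samples was not tested, and in bulk tissue more cells of a type cannot be told apart from more RNA per cell.

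The other named genes higher in both tissues were of several kinds. Clec10a, a galactose lectin of macrophages and dendritic cells, was higher by 1.99 in the spinal cord and 1.30 in the duodenum. Mfap5, a protein of elastic microfibrils, was at 3.71 and 0.98. Ncmap, a protein of the myelin of peripheral nerve, gave 1514 and 3981 in the spinal cord and 29.2 and 298 in the duodenum, differences of 1.29 and 1.11. Top2a, the topoisomerase of dividing cells, was at 1.08 and 1.07, and Ankle1, an endonuclease of blood precursors, at 1.36 and 1.40. Cyp2e1, a cytochrome P450 that is induced by fasting, was at 1.49 and 1.1, Acox2, a peroxisomal oxidase of bile acid precursors and branched fatty acids, at 1.02 and 1.03, and Slc6a12, a betaine transporter, at 1.30 and 1.17. Acox2 lay just inside the 2-fold limit, and Ankrd22, at 1.22 and 0.99, just outside it.

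Most of these genes were close to the detection limit of the WT duodenum array. Of the 15 named genes higher in both tissues, 10 had a signal under 25 there, with a median of 10.2 against 73.5 over all 16185 genes. With a normexp background correction in which flagged local backgrounds were replaced by the median of the array, Ctse, Isg20, Itga9, Ncmap, Eno3 and Acox2 stayed higher in both tissues, and the other 9 were lower in the duodenum. With plain normexp 4 of the 15, Isg20, Itga9, Ncmap and Eno3, stayed higher in both, and Ctse and Acox2 did not. With the backgrounds replaced, Isg20 was at 0.98 in the spinal cord and 1.25 in the duodenum and Ctse at 0.95 and 1.18, whereas Myom1 was at 1.72 and −0.28.

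At 2-fold, genes lower in both tissues were fewer, and the highest-ranked was at the bright end of the scale. Defa23, an alpha-defensin that Paneth cells of the crypt secrete against bacteria, gave 154625 on the WT and 152823 on the KO duodenum array, and 23 on the WT and 7.82 on the KO spinal cord array. Its scaled differences were −1.66 in the spinal cord and −2.26 in the duodenum, the latter being nearly the offset of 2.25 between the 75th percentiles of the 2 duodenum arrays. Of the 8 genes at least 2-fold lower in both tissues, 5 had such signals, from 92318 to 154625 on the WT duodenum array with KO signals of 0.934 to 1.03 times those, and all 5 lay under 33 on the spinal cord arrays. Of the 162 genes in the brightest 1% of the WT duodenum array, all 162 were lower in the KO duodenum after scaling, with a median of −1.38. With quantiles set equal over the 4 arrays, Defa23 was at −1.38 in the spinal cord and −0.35 in the duodenum. Alpha-defensin genes are near-identical copies, whose transcripts a probe may not tell apart.

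Of the 15 named genes lower in both tissues, 6 had a signal under 25 on the WT duodenum array, with a median of 45.2. Dop1a, a protein of membrane traffic at the Golgi, gave 160 and 79.2 in the WT and KO spinal cord and 10 and 12.4 in the duodenum, differences of −1.12 and −1.93. Abhd14b, a hydrolase that binds a subunit of the general transcription factor TFIID, gave 2436 and 789 in the spinal cord and 1095 and 2679 in the duodenum, differences of −1.73 and −0.96. For each of these 2 genes, which lie on the chromosome of Ip6k2, the KO spinal cord signal was below the WT signal, while the raw KO duodenum signal was above the WT signal and was below it only after scaling.

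Eppk1, an epiplakin of epithelial keratin filaments, was at −1.38 in the spinal cord and −0.81 in the duodenum. Pigt, a subunit of the transamidase that attaches GPI anchors, was at −0.75 and −0.88, the tetraspanin Tspan4 at −0.77 and −0.95 and the secreted metalloprotease Adamts1 at −0.74 and −0.93. Tekt4, a tektin of cilia, was at −0.88 and −1.30, Acr, the protease of the sperm acrosome, at −0.81 and −1.46, and Plcxd1 at −0.82 and −1.29. Asic3, a proton-gated channel of sensory neurons, was at −0.74 and −0.98, Slc5a10, a sugar transporter, at −0.74 and −0.78, Mlana, a melanocyte protein, at −0.75 and −0.81, and the olfactory receptor Olfr332 at −0.91 and −1.78. All 15 named genes lower in both tissues stayed lower in both under each other background correction and scaling tried. The other probe rule and filters could not change their signs, because these genes were chosen for passing the filter with probes of the same sign.

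**Figure D2:**
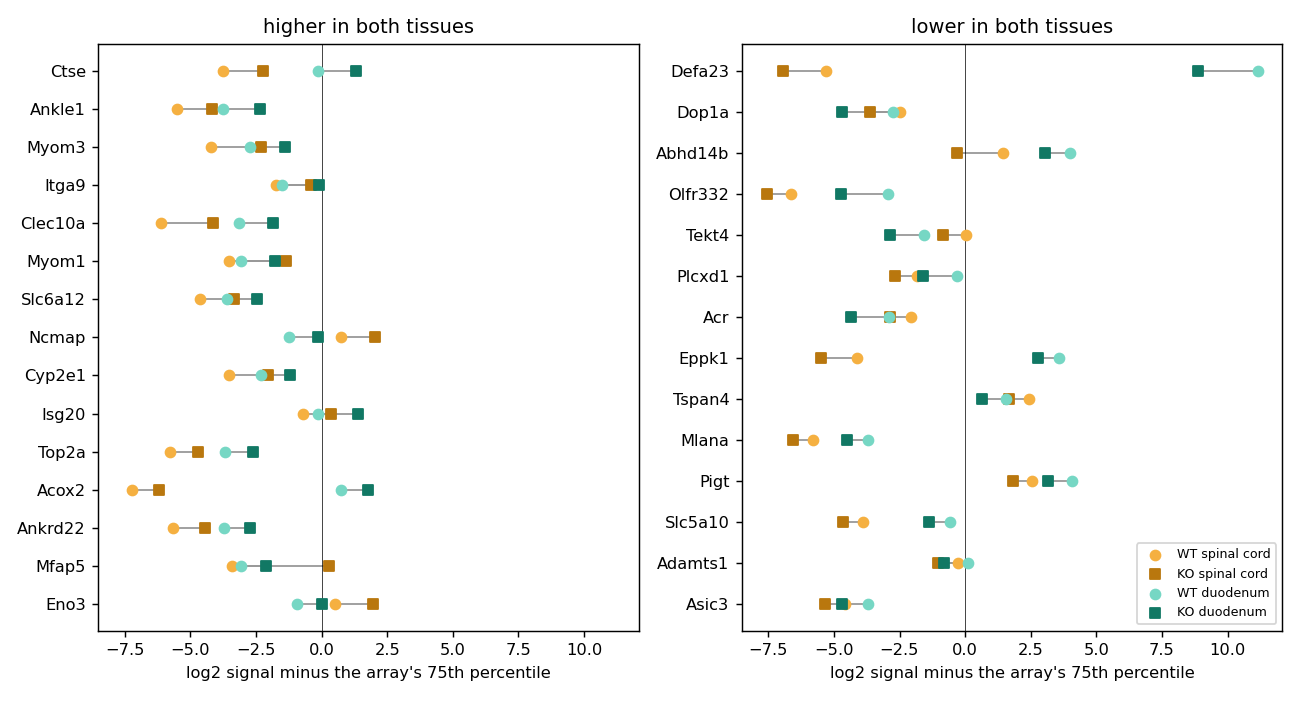
Level on each array (log2 signal minus the 75th percentile of the array) of the 15 named genes higher in both tissues (left) and 14 of the 15 lower in both (right); circles are WT, squares KO, orange spinal cord and green duodenum, with a line joining the 2 arrays of a tissue. The lines have similar lengths in both tissues for Ctse (1.5 and 1.43), and Defa23 lies at the top of the scale in the duodenum.

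The genes with a symbol and the smallest limma p also included Acta1, Nckipsd and Myl1, which fell outside those 30 because the smaller of their 2 differences was under the others. Nckipsd, a regulator of actin that is a near neighbour of Ip6k2 and among the neuronal genes the study names, gave 1536 and 3159 in the spinal cord and 11.1 and 412 in the duodenum, differences of 0.94 and 2.97. Myl1, a myosin light chain of fast muscle, was at 4.01 and 0.70. The adjusted p of each in limma was 0.97. Of the study's other neuronal genes that were measured, the histamine receptor Hrh4 was at −0.46 and −0.59, Mycn at 0.16 and 0.46 and Tbx1 at 0.31 and −0.81.

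Chromosome 9, which carries Ip6k2, held 17 of the 207 genes with a symbol that moved the same way by at least 0.5 in both tissues (8.21%), 7 of the 245 that moved in opposite directions by as much (2.86%), and 5.64% of all genes with a symbol. Across the 677 other genes of chromosome 9, r between the 2 differences was 0.10, and across 11346 genes of other chromosomes it was −0.026. Of the genes that moved by at least 0.5 in both tissues, 1 moved the same way and 1 in opposite directions within 25 measured genes on each side of Ip6k2, 3 and 4 within 50, and 7 and 4 within 100, with r of 0.22, 0.054 and 0.11. Beside Nckipsd, Itga9, Dop1a and Abhd14b, the same-way genes of chromosome 9 included Poc1a, a centriole protein, at −1.03 in the spinal cord and −0.72 in the duodenum, and Pxylp1, a phosphatase that acts on proteoglycan xylose, at −1.03 and −0.67, both named after their values were seen. The cause was not tested.

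Genes of the interferon response and antigen presentation were higher in both tissues more often than genes at large. These genes are switched on by interferons through the STAT factors and encode antiviral effectors, immunity GTPases and the machinery that loads peptides on MHC molecules. Of 31 measured members, 17 (54.8%) were higher in both tissues and 0 lower in both, against 19.1% and 34% of all genes. By more than 2 technical SD, 8 were higher in both, against 6.91% of all genes. The medians were 0.28 in the spinal cord and 0.20 in the duodenum, where those of all genes were −0.03 and −0.11. Under the plain normexp background correction the list turned, with 8 members higher in both, 11 lower in both and a spinal cord median of −0.36, and with flagged local backgrounds replaced 16 were higher in both and 6 lower in both. No member was at least 2-fold higher in both, and 1 had an unadjusted limma p under 0.05.

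Oas2, a synthase of the 2-5A signal that activates RNase L, gave 33.1 and 66.5 in the WT and KO spinal cord and 6.53 and 109 in the duodenum, differences of 0.90 and 1.81. Irgm2, an immunity-related GTPase, gave 185 and 302 and then 53.2 and 464, differences of 0.61 and 0.88. Isg15, a ubiquitin-like modifier, gave 361 and 565 and then 222 and 1684, differences of 0.54 and 0.68. Igtp was at 0.28 and 1.52, Rsad2, the antiviral enzyme viperin, at 0.96 and 0.28 and Gbp2, a guanylate-binding protein, at 0.63 and 0.20.

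The MHC class II genes did not move alike. H2-Eb1 was higher by 1.5 in the spinal cord and 0.28 in the duodenum, while H2-Aa was at 1.76 and −0.75 and Cd74, the invariant chain, at 1.83 and −0.67. Of the 8 measured lymphocyte markers, 2 were higher in both tissues and 2 lower in both, against 19.1% and 34% of all genes. Their medians were 0.92 in the spinal cord and −0.34 in the duodenum. Of the 12 macrophage and microglial markers 1 was higher in both and 2 were lower, with medians of 0.10 and −0.34. The part of immune cells in the values of the interferon list was not tested.

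The promoters of the interferon list were read on both strands for GAAA, 2 bases of any kind and GAAA, the core of the interferon-stimulated response element, a motif added after the list was seen. It was found in 10 of the 14 members higher in both tissues that have a promoter in the table (71.4%), in 4 of the 10 other measured members (40%) and in 3.99% of the 27025 genes of the table. The list was chosen for its link to interferon, so its share of this core is not independent of that choice. The gap between the 2 parts of the list was not tested. These shares describe the list and are no support for a shared interferon effect. Oas2 is not in the table. The 3 promoters below belong to the members with this core and the largest shared differences whose probes had the same sign, and they show how near the start site the core lies. Each run is 300 bases of RefSeq sequence on GRCm38.p6, from 250 bases before the start to 50 after it, 5′ to 3′ on the strand of the gene, with the core in capitals: Irgm2 at chr11:58214727-58215026 on the plus strand, Isg15 at chr4:156200769-156201068 on the minus strand, where 3 overlapping cores make 1 run of capitals, and Rsad2 at chr12:26456403-26456702 on the minus strand, where the core is read on the opposite strand.
Irgm2: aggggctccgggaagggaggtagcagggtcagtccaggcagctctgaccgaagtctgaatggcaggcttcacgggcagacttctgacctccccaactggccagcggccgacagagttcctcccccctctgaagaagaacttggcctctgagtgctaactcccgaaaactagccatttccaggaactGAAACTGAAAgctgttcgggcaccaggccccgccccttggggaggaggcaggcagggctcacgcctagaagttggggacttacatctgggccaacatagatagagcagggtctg
Isg15: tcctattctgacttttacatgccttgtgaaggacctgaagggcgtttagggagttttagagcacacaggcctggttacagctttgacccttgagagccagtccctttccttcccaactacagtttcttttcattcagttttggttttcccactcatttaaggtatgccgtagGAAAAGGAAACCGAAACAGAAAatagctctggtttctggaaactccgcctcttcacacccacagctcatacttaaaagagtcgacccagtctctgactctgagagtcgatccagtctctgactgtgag
Rsad2: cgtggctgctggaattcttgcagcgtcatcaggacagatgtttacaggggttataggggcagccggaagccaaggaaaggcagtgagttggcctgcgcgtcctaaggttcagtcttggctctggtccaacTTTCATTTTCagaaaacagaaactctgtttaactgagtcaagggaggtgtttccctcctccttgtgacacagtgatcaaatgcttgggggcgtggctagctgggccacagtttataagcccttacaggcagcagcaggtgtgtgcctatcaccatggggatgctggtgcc

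The core began 64 bases before the start site in Irgm2, at 78 bases before it for the first of the 3 in Isg15, and at 120 bases before it in Rsad2. Among the 30 named genes that moved the same way, 12 of the higher and 11 of the lower genes have a promoter in the table, and none of them holds the interferon core. The E-box CACGTG was in 0 of the 12 and in 2 of the 11 (Plcxd1 and Tspan4), against 8.09% of all genes. The heat shock core GAANNTTC was in 1 of the 12 (Top2a) and 2 of the 11 (Defa23 and Slc5a10), against 9.04%. The cyclic AMP element TGACGTCA was in none, against 2.03%, and the nuclear receptor palindrome, GGTCA and TGACC with 3 bases of any kind between them, was in none, against 0.074%. All were searched on both strands.

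Genes of the unfolded protein response were also higher in both tissues more often than genes at large. The response is run by IRE1, PERK and ATF6 and raises the chaperones and disulfide isomerases of the endoplasmic reticulum. Of 24 measured members, 14 (58.3%) were higher in both tissues and 2 (8.33%) lower in both, against 19.1% and 34% of all genes. By more than 2 technical SD, 7 were higher in both, against 6.91% of all genes. The medians were 0.06 in the spinal cord and 0.32 in the duodenum. Xbp1, the factor spliced by IRE1, gave 5960 and 8241 in the spinal cord and 3184 and 19285 in the duodenum, differences of 0.37 and 0.35. Pdia4, a disulfide isomerase, was at 0.39 and 0.78, Creld2 at 0.40 and 0.51, the secreted chaperone Manf at 0.58 and 0.28 and Pdia6 at 0.18 and 1.36. Hspa5, the master chaperone BiP, was at 0.26 and 0.14. Trib3 and Canx were the 2 members lower in both, at −0.17 and −0.39 and at −0.16 and −0.14. The spinal cord differences of this list were small, and 1 member had an unadjusted limma p under 0.05.

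Cholesterol synthesis genes were mostly lower in both tissues. SREBP-2 drives these genes when sterols are scarce. Of 23 measured members, 15 (65.2%) were lower in both tissues and 0 higher in both, against 34% and 19.1% of all genes. By more than 2 technical SD, 6 were lower in both, against 11.5% of all genes. The medians were −0.12 in the spinal cord and −0.30 in the duodenum. Insig1, the sterol sensor that retains SREBP, gave 696 and 600.1 in the spinal cord and 45.6 and 123 in the duodenum, differences of −0.32 and −0.81. Mvd, the decarboxylase of the mevalonate pathway, was at −0.31 and −0.90, and Mvk, its first kinase, at −0.21 and −0.997. With quantiles set equal over the 4 arrays, 10 members were lower in both and 1 higher, and under plain normexp 10 and 8.

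**Figure D3:**
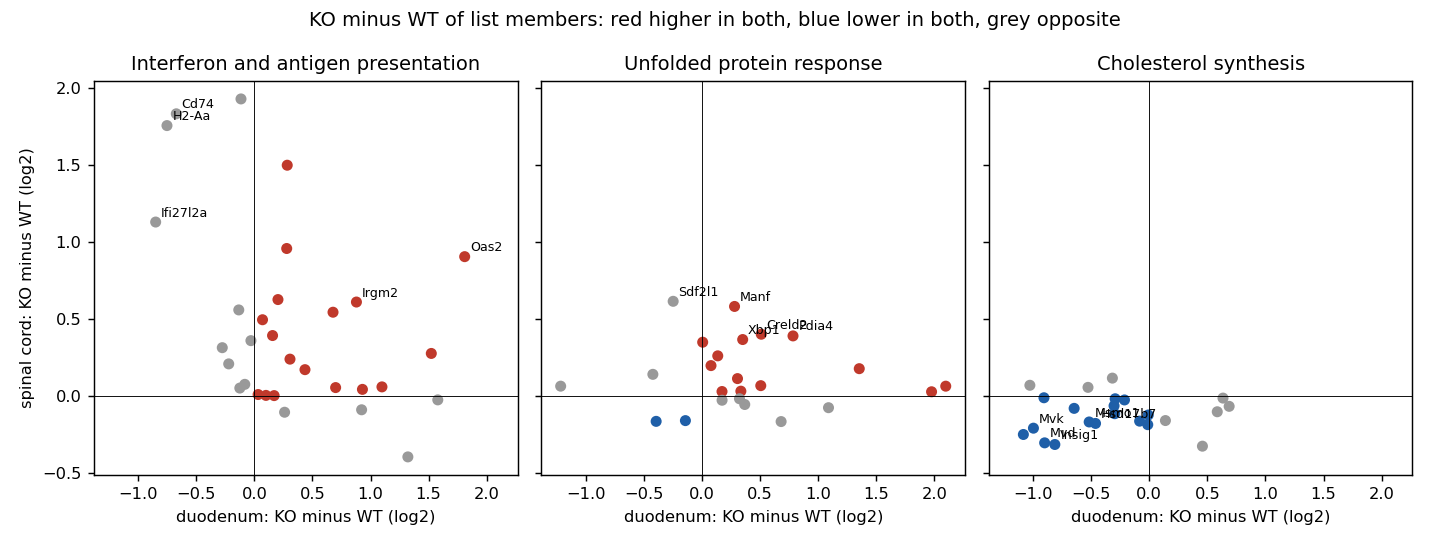
KO minus WT in the duodenum (x axis, log2) against the spinal cord (y axis, log2) for the measured members of 3 gene lists, red where higher in both tissues, blue where lower in both and grey where the directions differed. Interferon genes lie in the upper right quadrant (17 of 31), unfolded protein response genes close to the x axis (14 of 24 higher in both) and cholesterol synthesis genes in the lower left (15 of 23).

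Genes of fatty acid oxidation and the fasting response are targets of PPAR alpha. Of 22 measured members, 9 (40.9%) were higher in both tissues and 1 (4.55%) lower in both, against 19.1% and 34% of all genes. The medians of the members were 0.03 in the spinal cord and 0.39 in the duodenum. Pdk4, the kinase that spares glucose by shutting pyruvate dehydrogenase, gave 1962 and 3866 in the spinal cord and 885 and 6600 in the duodenum, differences of 0.88 and 0.65. Angptl4, an inhibitor of lipoprotein lipase, was at 0.92 and 0.16, and Slc25a20, the carnitine carrier and a near neighbour of Ip6k2, at 0.20 and 1.001. Pck1, the rate-limiting enzyme of gluconeogenesis, went the other way in the spinal cord, at −1.80 against 1.19 in the duodenum.

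Over all genes, 34% were lower in both tissues and 19.1% higher in both. Of 21 immediate early genes, which respond within minutes to stimuli, 12 (57.1%) were lower in both and 2 (9.52%) higher in both, with medians of −0.13 in the spinal cord and −0.77 in the duodenum. Maff was at −0.49 in the spinal cord and −1.09 in the duodenum and Nr4a1 at −0.34 and −0.60. Of 19 clock genes, 9 (47.4%) were lower in both and 2 (10.5%) higher in both, with medians of −0.10 and −0.33. Per3 was at −0.26 and −1.52, Per1 at −0.23 and −0.69 and Cry2 at −0.32 and −0.33.

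Of 23 cell cycle genes, 10 (43.5%) were higher in both tissues and 3 (13%) lower in both, against 19.1% and 34% of all genes. The medians of the 23 were 0.45 in the spinal cord and −0.19 in the duodenum. Ccnb2, a mitotic cyclin, gave 166 and 331 in the spinal cord and 75.9 and 690 in the duodenum, differences of 0.89 and 0.94. Mki67, a marker of dividing cells, was at 1.47 and 0.51 and Cenpe, a kinesin of the mitotic spindle, at 0.61 and 1.18, whereas Ccnb1 was at 1.11 and −0.60. Under plain normexp, 4 members were higher in both and 13 lower in both, with a spinal cord median of −0.31.

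**Figure D4:**
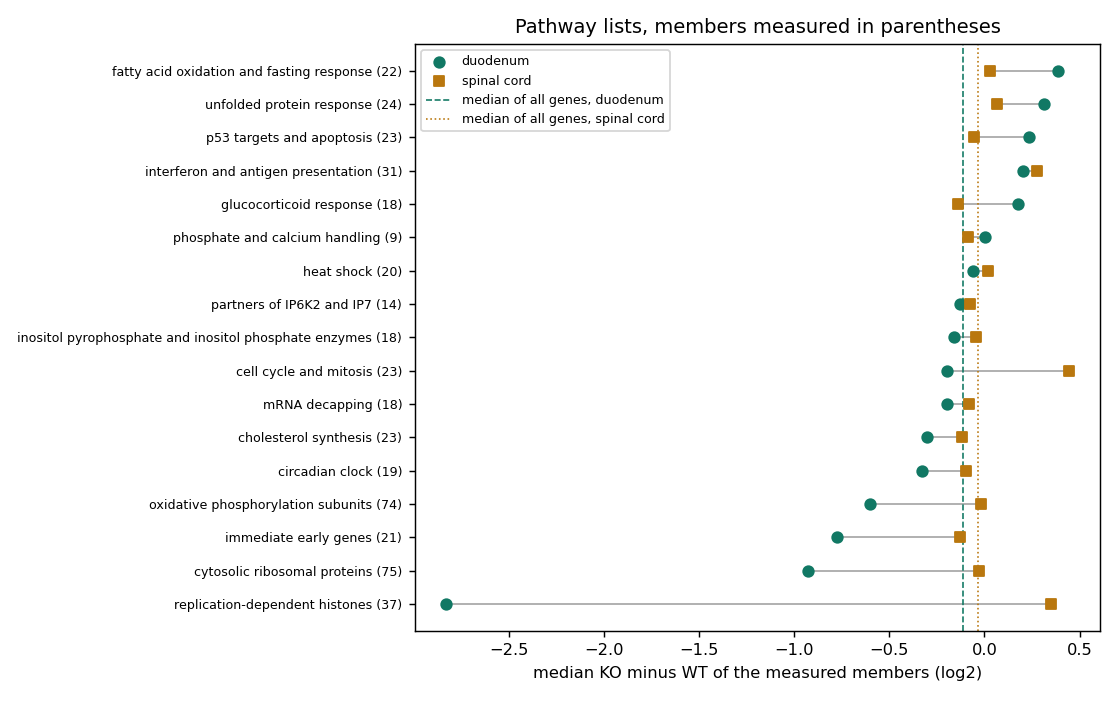
Median KO minus WT (log2, x axis) of the measured members of each pathway list, green circles for the duodenum and orange squares for the spinal cord; the number of members measured is in parentheses and the lines mark the medians of all genes (−0.11 for the duodenum and −0.03 for the spinal cord). Interferon genes are right of the lines in both tissues (0.20 for the duodenum and 0.28 for the spinal cord), and cholesterol synthesis genes are left of them in both (−0.30 and −0.12, in the same order).

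Of 18 measured enzymes of inositol pyrophosphates and inositol phosphates, 5 (27.8%) were lower in both tissues and 0 higher in both, against 34% and 19.1% of all genes. These included the inositol trisphosphate kinases Itpka (−0.34 in the spinal cord and −0.49 in the duodenum) and Itpkb (−0.22 and −1.20) and Itpk1 (−0.31 and −0.48). The paralog Ip6k1 was at −0.04 and 0.27. Under plain normexp, 10 of the 18 enzymes were higher in both and 5 lower, and with flagged backgrounds replaced 4 and 5. Of 14 proteins known to work with IP6K2 or IP7, 2 (14.3%) were higher in both and 7 (50%) lower in both. With quantiles set equal over the 4 arrays, 2 of these 14 were higher in both and 3 lower, and under plain normexp 12 and 1. Of 18 genes of mRNA decapping, 3 (16.7%) were higher and 7 (38.9%) lower in both, and of 9 genes of phosphate and calcium handling 1 (11.1%) and 4 (44.4%). Under plain normexp, the decapping genes had 6 and 6 and the phosphate and calcium genes 3 and 2.

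The directions of some lists turned with the scaling. Of all genes, 19.1% were higher in both tissues, 34% lower in both and 47% opposite, shares to set beside the counts that follow. Of 75 cytosolic ribosomal protein genes, 43 were lower in both tissues and 1 higher in both, with medians of −0.03 in the spinal cord and −0.93 in the duodenum, and with quantiles set equal over the 4 arrays 7 were lower in both and 30 higher, the duodenum median being 0.06. Of 74 oxidative phosphorylation subunits, 33 were lower in both and 2 higher, and under the same quantiles 5 and 12. That scaling moved the median of all genes in the duodenum from −0.11 to 0.02. Of 37 replication-dependent histone genes, 28 moved in opposite directions, with medians of 0.35 in the spinal cord and −2.83 in the duodenum. Heat shock genes had 5 of 20 higher in both and 5 lower in both, and 7 and 2 with quantiles set equal over the 4 arrays. They had 8 and 1 under normexp with replaced backgrounds and 15 and 2 under plain normexp. The p53 targets had 2 higher and 4 lower of 23, and 6 and 10 under plain normexp. Glucocorticoid-responsive genes had 5 and 6 of 18, 7 and 4 under equal quantiles and 10 and 2 under plain normexp.

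Markers of other cell types differed between the arrays, mostly not alike in both tissues. For comparison, 19.1% of all genes were higher in both tissues and 34% lower in both. At least 2-fold, 14.2% of all genes were lower in the KO duodenum and 1.56% higher in the KO spinal cord. Of 8 measured red blood cell genes, 7 were at least 2-fold lower in the KO duodenum and 5 at least 2-fold higher in the KO spinal cord, with medians of 1.16 in the spinal cord and −2.91 in the duodenum. Neutrophil markers had medians of 0.96 and −0.84 over 5 genes, and mast cell markers of 0.07 and −0.34 over 5. Of 8 adipocyte markers, 4 (50%) were lower in both tissues, 0 higher in both and 4 moved in opposite directions. Their medians were −0.51 in the spinal cord and −0.39 in the duodenum, the latter being 0.06 under normexp with replaced backgrounds. Pparg, the regulator of adipocyte formation, was at −0.59 and −0.41, whereas Fabp4 was at −1.13 and 0.69 and Cidea at −1.11 and 0.37. Of 8 pancreatic acinar genes, 5 (62.5%) were lower in both and 0 higher, with medians of −0.10 and −1.34. With quantiles set equal over the 4 arrays, 2 of the 8 were lower in both and 1 higher, the duodenum median being 0.22. Of 14 neuronal markers, 7 (50%) were lower in both and 0 higher, with medians of −0.06 and −0.33. Under equal quantiles over the 4 arrays, 5 neuronal markers were lower in both and 3 higher. Of 8 glial and Schwann markers, 3 (37.5%) were higher in both, 0 lower in both and 5 moved in opposite directions. Prx, a protein of peripheral myelin, was at 5.23 in the spinal cord and 0.61 in the duodenum, whereas Pmp22 of the same list moved in opposite directions. The duodenum median of the glial list was 0.65, and −0.64 under normexp with replaced backgrounds. Astrocyte markers were higher in both in 2 and lower in both in 2 of 7, intestinal epithelial markers in 2 and 1 of 7, smooth muscle markers in 0 and 3 of 11, endothelial markers in 3 and 2 of 12 and fibroblast markers in 3 and 1 of 12. The single bone and cartilage gene measured moved in opposite directions. Of the 5 sex markers, the Y-linked Ddx3y and Eif2s3y were measured on all 4 arrays and Xist was not well above background on any. The part of these cell types in the genes that moved the same way was not tested.

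Other genes differed most in opposite directions. Pgam2, the muscle phosphoglycerate mutase, was 3.87 higher in the KO spinal cord and at −2.32 in the duodenum, and Pmp22, a protein of peripheral myelin, gave 4447 and 18813 in the spinal cord and 577 and 475 in the duodenum, differences of 1.98 and −2.53. Ly6d was at 2.35 and −1.57, Gfi1b, a repressor of red cell and platelet precursors, at 1.69 and −2.03, and the lipid transporter Abca8a at 1.67 and −1.62. In the reverse direction, Syt10, a calcium sensor of secretory vesicles, gave 438 and 94.8 in the spinal cord and 89.3 and 3366 in the duodenum, differences of −2.31 and 2.99. The carboxylesterase Ces1d was at −1.33 and 1.13, Plekhs1 at −1.35 and 1.04 and Ano7 at −0.96 and 1.5.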

How the data were processed

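Total RNA of duodenum and spinal cord, 1 WT and 1 IP6K2-/- sample of each, was labelled with Cy3 and hybridized to 1-colour mouse arrays that shared 1 slide. The authors deposited, per array, the file of Agilent Feature Extraction (11.5.1.1 in the submitters' processing notes), whose processed signal is a background-corrected intensity on a linear scale, together with a table of log2 values. That table was found to hold log2 of the same signals, raised to 1 where lower, after quantile normalization over the 4 arrays, and the values of 6 probes did not match between table and scanner files, so these were left out of that alternative.

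Control spots and outlier spots were removed, repeat spots were averaged as log2 signals, and each array was centred on its own 75th percentile. Each gene was represented by its probe with the highest mean, and had to be well above background on all 4 arrays. RefSeq (GRCm38.p6) gave symbols and promoters. The fit used limma 3.58.1 in R 4.3.3, with tissue as a block and Benjamini-Hochberg adjustment. It was also run on simulated data, with large changes and noise that were alike in both tissues. That run does not show how the fit behaves where the duodenum differences are wider than those of the spinal cord. The technical SD of a difference combines both arrays, each entering as the median SD of the 50 repeatedly printed probes nearest in level. The number of arrays limits the precision.

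The genes named are those with a symbol whose probes all kept the same sign: the 15 highest and 15 lowest in both tissues by the smaller difference, 5 of each opposite direction, the 10 smallest limma p, Ip6k2 and genes within 10 places of it, the study's neuronal genes and up to 6 members of each list described. Some genes that this rule picks are not reported here, but remain in the counts. Other genes named for contrast, namely Ckm, Gbp2, H2-Aa, Cd74, Hspa5, Canx, Ccnb1, Ip6k1, Poc1a and Pxylp1, were chosen after their values were seen. The members, the gene lists and the tests were chosen with earlier results of these data known, and nothing here is independent support for those results. Alternatives were other background corrections, scalings, filters, probe rules, fold limits and fits, and each tissue left out.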

Additional observations from a re-analysis of the deposited data

Results flagged for a closer look

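Differences that had opposite signs in the 2 tissues were picked out, and the difference between the tissues was not tested for any of them, with 1 array per group. The targeted gene Ip6k2 was among them, with a duodenum minus spinal cord difference of −1.66. The genes higher in the KO duodenum and lower in the KO spinal cord were Syt10 (5.30), Pck1 (2.99), Ano7 (2.46), Ces1d (2.46) and Plekhs1 (2.40). Those lower in the duodenum and higher in the spinal cord were Pgam2 (−6.19), Pmp22 (−4.51), Ly6d (−3.92), Gfi1b (−3.72) and Abca8a (−3.29). Among lists with at least 5 measured members, the medians of red blood cell genes (−4.08), skeletal muscle genes (−3.15) and neutrophil genes (−1.80) had opposite signs and were at least 0.5 from 0 in both tissues.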

How the results depend on the processing

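The number of genes at least 2-fold higher in both tissues (21) lay between 19 and 25 with the deposited table, quantile scaling of 4 arrays or of each tissue, probe means and median centring. It was 5 under the normexp background correction, 3 with flagged backgrounds replaced, 83 with no filter on dim probes, 63 with 1 array of each tissue well above background, 118 at 1.5-fold and 1118 beyond 2 technical SD. The number lower in both (8) was 1744, 1, 655, 20, 66 and 1869 under the same 6 settings, and 2 under quantiles over 4 arrays, 4 within tissue and 2 in the deposited table. The opposite genes (62) numbered 99, 36, 643, 112, 230 and 2487. With leave-one-out, the number higher was 253 without the duodenum and 1150 without the spinal cord, and the number lower 49 and 2306. The correlation (0.024) was 0.50 under normexp, 0.041 with flagged backgrounds replaced, 0.061 with no filter, and between 0.0097 and 0.033 otherwise.

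limma called 8 genes with normexp and replaced backgrounds and 17 with a trended prior, and 0 under each other fit, including that with no tissue block. No paired analysis was possible because the labels carry no replicate numbers; the tissue block pairs arrays by organ only. Leaving out a pair leaves no residual degrees of freedom, so limma was not run there.

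Some shared increases had a mean difference below 0 under normexp with replaced backgrounds: Ankle1 (−0.0724), Ankrd22 (−0.26), Clec10a (−0.0144), Slc6a12 (−0.0697) and Top2a (−0.29). Under plain normexp these were at −1.10, −1.29, −1.13, −0.97 and −1.33, and Acox2 (−0.53), Cyp2e1 (−0.40) and Myom3 (−0.34) were also below 0; the cause was not tested. Under plain normexp the interferon list had 8 members higher and 11 lower in both, the cholesterol list 8 and 10 and the cell cycle list 4 and 13. Outside plain normexp, with the filter kept, the cholesterol list had 10 to 15 members lower in both and the unfolded protein response 13 to 15 higher in both.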
